A study of Homo sapiens with 24 samples.

Results

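Messages differ widely in how long they survive once their synthesis stops, and the libraries described here measured that survival in HepG2 cells, an established human liver cancer line, in which IGF2BP1, IGF2BP2 or IGF2BP3 had been depleted. The comparison set the 6 libraries of siIGF2BP1, siIGF2BP2 and siIGF2BP3 cells at 0 h of actinomycin D, a drug that blocks transcription, against the 6 libraries of the same 3 siRNAs at 6 h, which are 12 of the 24 libraries in the series. Each siRNA and time point had 2 libraries. All of these cells received a predesigned siRNA by lipid transfection, were re-seeded 6 h later into 3 plates, and after another 48 h were collected with 0 h or 6 h of actinomycin D at 5 µg per ml, so that the plates of an siRNA at 0 h and 6 h differed in the length of the drug treatment. The 6 libraries of the same siRNAs at 3 h were used to describe the course between the end points, and siControl libraries were not used. The question asked of the data was which gene classes lost their transcripts fast and which kept them in IGF2BP-depleted cells. The labels do not say whether the 2 replicates came from separate cultures, so every p-value measures the spread between these libraries, which may be technical. In the gene tests that spread is pooled over genes, so a gene can have a small p-value although its own replicates disagree.

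IGF2BP1, IGF2BP2 and IGF2BP3 are related RNA-binding proteins that attach to mature mRNA and are known as readers of internal methylation marks, including m6A and m7G. Decay of most mRNAs starts with shortening of the poly(A) tail, followed by removal of the cap and digestion from the 5′ end, or by digestion from the 3′ end by the exosome. AU-rich elements in the 3′ untranslated region (3′UTR) recruit proteins of the ZFP36 family that hasten tail shortening, and such elements are known from transcripts that are switched on briefly by a signal. Hepatocytes, in turn, are known for very stable messages of the proteins they secrete into blood.

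The siRNA targets checked the labels. IGF2BP1 (chromosome 17, 48997385 to 49056145, plus strand, hg38) was at 75.5 to 140 ERCC-scaled CPM in the 4 siIGF2BP1 libraries and at 505 to 793 in the 8 libraries of the other siRNAs, a log2 difference of -2.65 (SE 0.052), or 15.9% of their level. ERCC-scaled CPM is a read count divided by the reads of the synthetic ERCC RNAs in the same library and multiplied by a constant that is the same for every library. IGF2BP2 was at 34.1 to 51.5 in its own libraries against 156 to 208 (log2 -2.07, SE 0.053), and IGF2BP3 at 24.5 to 41.0 against 88.6 to 126 (log2 -1.77, SE 0.055), with an edgeR adjusted p of at most 3.15e-226 for the 3 targets. None of the 3 ranges overlapped. The 10 HepG2 markers summed to 66387 to 72202 CPM at 0 h and 91771 to 98279 CPM at 6 h, the 3 endothelial markers were each under 1 CPM at the median of the libraries, and of the leukocyte markers LYZ alone was high, at 772 to 1615 CPM, while PTPRC, CD3E and CD68 were under 1 CPM at the median. Of the fibroblast markers, COL1A1, COL1A2 and COL3A1 were under 1 CPM at the median and PDGFRB was at 4.70 to 13 CPM.

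Transcripts fell relative to the spike-ins. There were 703 to 775 gene reads per ERCC read at 0 h (741 ± 28.8, SD, n = 6), 589 to 666 at 3 h and 535 to 616 at 6 h (572 ± 35.2, SD, n = 6), so that 77.1% was left and the 0 h and 6 h ranges did not overlap (exact permutation test within siRNAs, two-sided, p = 0.00926, the smallest its 216 arrangements can give). The ERCC RNAs had been added in proportion to purified total RNA, so a level here is per total RNA and not per cell. The number of cells does not enter it, and a change in total RNA per cell, which was not measured, would shift every level alike.

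Among 12358 genes with at least 1 CPM in at least 6 of the 12 libraries, 9781 were lower at 6 h, which is 79.1% of those tested, and 801 were higher, or 6.48% (edgeR quasi-likelihood test, Benjamini-Hochberg adjusted p under 0.05). A second, stricter call asked for a fall of more than 1 log2 unit, and 4094 genes passed it, or 33.1%. Since a gene could enter on its 0 h libraries alone, low genes that fell are represented in these counts by construction. The median log2 change was -0.66, which leaves 63.1% after 6 h and corresponds to a half-lifetime of 9.03 h, and the middle of the distribution spanned -1.47 to -0.21 (interquartile range). The median was -0.67 in siIGF2BP1, -0.69 in siIGF2BP2 and -0.64 in siIGF2BP3. Of the 9781 genes that fell, 9751 had a negative change in each of the 3 siRNAs, and their median half-lifetime was 6.48 h, taken as 6 h divided by the number of log2 units lost. It was under 1 h for 19 genes, under 2 h for 751 and over 24 h for 912. Such a value takes the rate as even over 6 h and exceeds that of the first 3 h where loss slowed later. These directions depend on the spike-ins: under TMM scaling, which centres the genes, 5564 were lower and 5256 higher, and the median change was -0.02, so a change is best read against the median of all genes.

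Ranked by the median change of their tested members, 45 gene classes spanned 4.04 log2 units, from -3.85 to 0.19. The 4 lowest medians were those of TGF-beta and BMP response, AP-1 and EGR, MAPK feedback and KLF genes, and the 5 highest those of citric acid cycle enzymes, coagulation and complement proteins, respiratory chain subunits, glycolytic enzymes and cytosolic ribosomal proteins. In the plot of class medians, 24 classes lay below the median of all genes and 21 above it. The order was close between the 3 depletions: the median of a class differed by 0.081 log2 units (median over classes) and by at most 0.416 between the siRNA with the lowest and the siRNA with the highest value. Of the 44 neighbouring pairs in the ranking, 33 had overlapping siRNA ranges, so those steps did not exceed the spread over siRNAs, while the ranges of the other pairs did not overlap, among them the first step. In the alternatives run, the 6 fastest classes were the same 6. Of the 6 slowest, 4 were shared when siIGF2BP3 was left out and 5 or 6 otherwise, and ranks moved by up to 7 places when a mean of 5 CPM was asked for.

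**Figure D1:**
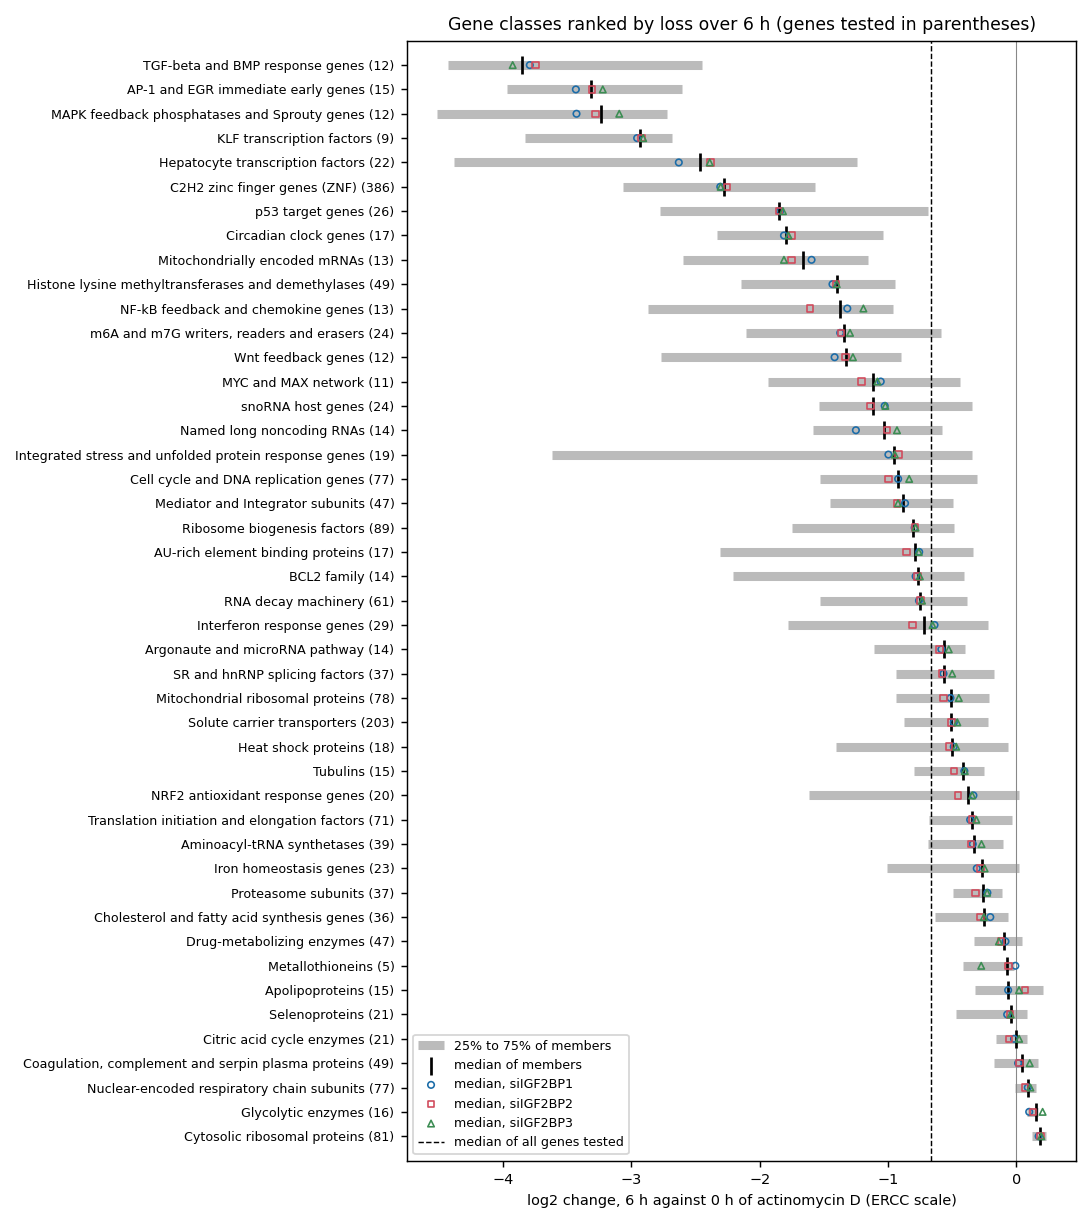
Median log2 change from 0 h to 6 h of actinomycin D for 45 gene classes on the ERCC scale (x axis), with the number of genes tested in parentheses on the y axis. Black ticks are class medians, grey bars the 25% to 75% range of members, coloured symbols the medians in siIGF2BP1, siIGF2BP2 and siIGF2BP3, and the dashed line the median of all 12358 genes (-0.66). Class medians run from -3.85 for TGF-beta and BMP response genes to 0.19 for cytosolic ribosomal proteins, and under TMM scaling 21 classes instead of 5 lie above 0.

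**Figure D2:**
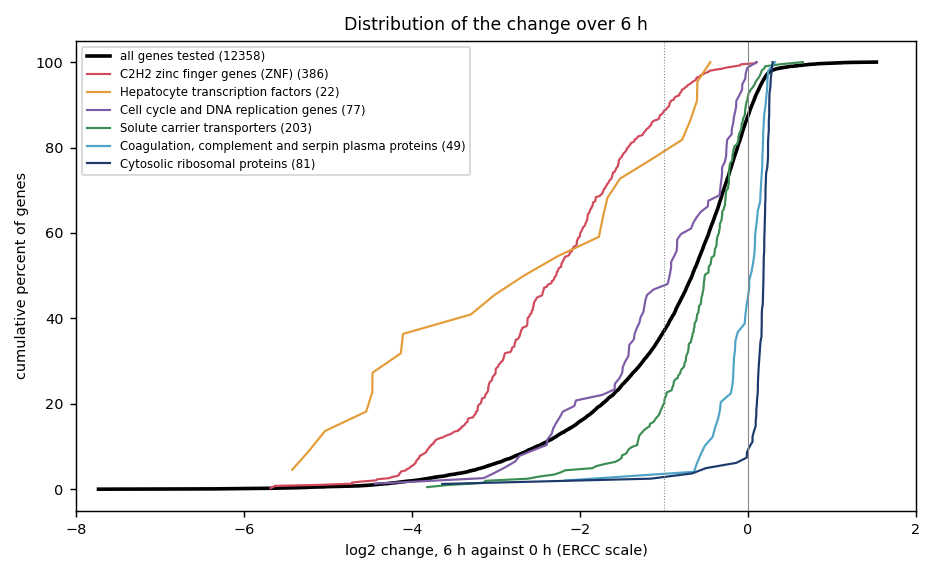
Cumulative percent of genes (y axis) against the log2 change from 0 h to 6 h on the ERCC scale (x axis) for all genes tested and 6 classes, with the number of genes in parentheses. Vertical lines mark 0 and a loss of 1 log2 unit. The ZNF and hepatocyte transcription factor curves lie to the left of the curve of all genes over most of their length, and the ribosomal protein curve rises steeply just above 0.

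The 4 classes with the lowest medians hold many genes known to respond to signals. TGF-beta and BMP response genes, the targets and inhibitors of SMAD signalling, had a median of -3.85, with 12 of 12 tested members lower (14 listed) and 11 past 1 log2 unit. AP-1 and EGR immediate early genes, transcription factors induced within minutes of a stimulus, had a median of -3.31, with 15 of 15 tested lower (22 listed) and 14 past 1 log2 unit. MAPK feedback phosphatases and Sprouty genes, which restrain growth factor signalling, had a median of -3.24, with 12 of 12 lower (15 listed) and all 12 past 1 log2 unit. KLF transcription factors, which bind GC-rich promoters, had a median of -2.93, with 9 of 9 lower (17 listed) and past 1 log2 unit. Against this, the share of all genes past 1 log2 unit was 33.1%.

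ID2, an inhibitor of DNA binding by basic helix-loop-helix factors (chromosome 2, 8678845 to 8684461, plus strand), was at 109, 126 and 135 ERCC-scaled CPM (lowest, median and highest of the 6 libraries) at 0 h and at 1.54, 1.70 and 2.28 at 6 h. Its 0 h and 6 h libraries were far apart, with a log2 change of -6.09 (SE 0.068), 1.47% ± 0.0704 left (SD over the 3 siRNAs) and a half-lifetime of 0.985 h. BAMBI, a decoy receptor of the TGF-beta family, went from 6.34, 9.29 and 12.1 to 0.0219, 0.0359 and 0.0908, a log2 change of -7.50 (SE 0.196) that rests on 1 to 6 reads a library at 6 h. DUSP6, the phosphatase that switches off ERK (chromosome 12, 89347235 to 89352501, minus strand), went from 22.8, 26.1 and 32.1 to 0.162, 0.499 and 0.853. No DUSP6 library at 6 h came near those at 0 h, and its log2 change was -5.70 (SE 0.102). JUNB, a subunit of AP-1, went from 4.80, 5.43 and 6.36 to 0.0359, 0.0471 and 0.61, where the highest value is a single library, replicate 1 of siIGF2BP2, and the other 5 were at 0.0657 or below. KLF10, a factor induced early by TGF-beta, went from 33.3, 36.4 and 38.8 to 1.11, 1.62 and 1.91 (log2 -4.53, SE 0.080). All genes named here as past 1 log2 unit had an edgeR adjusted p of at most 4.95e-74 for any change and of at most 0.0396 in the threshold test.

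The classes were not uniform inside. Among SMAD targets, ID1 changed by -4.10 and SKIL, a SMAD corepressor, by -1.80. In the AP-1 class IER2 sat near the median with -3.31, MAFK lost less with -1.51 and SRF, the factor that drives many immediate early genes, changed by -1.03 and did not pass the threshold test. MAPK feedback genes spread as well, with SPRY2 at -5.60 and the phosphatase DUSP7, the slowest of the class, at -1.92. KLF9 changed by -4.52, KLF6 by -2.93 and KLF13 by -2.32.

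The AU-rich words in these messages are shown because the 4 classes have the lowest medians. TATTTAT, a core of AU-rich elements, was searched on the sense strand of the 3′UTR of the canonical GENCODE transcript (GRCh38). The 8 sites below come from the members of these classes with the most copies among those past 1 log2 unit and with at least 5 CPM at 0 h, a choice made after the values were seen that says nothing of how common the word is. They show 27 bases around a copy with TATTTAT in capitals.
IER3: tcctaattaaTATTTATatgTATTTAT
DUSP1: ggctggtcctTATTTATttaacttcac
IER5: ttccttTATTTATTTATTTATttaatt
SPRED1: aaagcatttaTATTTATatgacagctt
SPRY4: taaccataggTATTTATtgattggagg
SPRY1: tattttatggTATTTATtgcaaaagac
SKIL: cagagagctaTATTTATtttaaaataa
MAFG: agctgcagagTATTTATaaaactgtct
The IER3 site lies at chr6:30743654-30743680 on the minus strand, 256 bases after the stop codon, and that of DUSP1 at chr5:172768644-172768670 on the minus strand, 92 bases after it. The other sites are at chr1:181092448-181092474 (IER5, plus), chr15:38353350-38353376 (SPRED1, plus), chr5:142312398-142312424 (SPRY4, minus), chr4:123403612-123403638 (SPRY1, plus), chr3:170393792-170393818 (SKIL, plus) and chr17:81921790-81921816 (MAFG, minus). In the IER5 stretch the copies overlap one another. SPRED1 held 5 copies in its 3′UTR, IER3, IER5, SPRY4 and MAFG 4 each, and DUSP1, SPRY1 and SKIL 3 each. Copy number did not order these genes: the half-lifetime was 1.15 h for IER3, 1.2 h for DUSP1, 1.62 h for IER5, 1.95 h for SPRED1, 2.08 h for SPRY4, 2.15 h for SPRY1, 3.33 h for SKIL and 3.91 h for MAFG. A match describes the letters and is not a measured binding site.

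**Figure D3:**
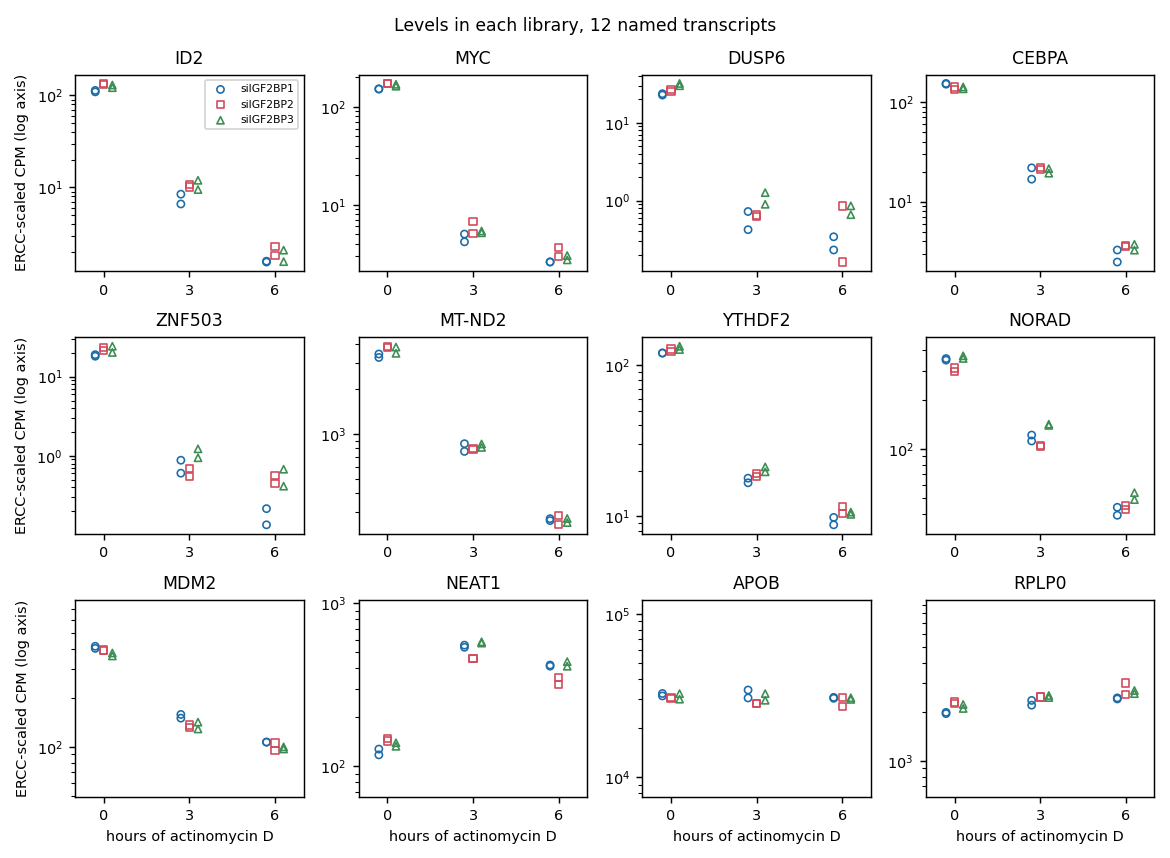
Level of 12 named transcripts in each library (y axis, ERCC-scaled CPM, log axis) against hours of actinomycin D (x axis), 1 symbol per library and 1 colour and shape per siRNA. ID2, MYC, DUSP6, CEBPA, ZNF503, MT-ND2, YTHDF2, NORAD and MDM2 fall with no overlap between 0 h and 6 h, NEAT1 and RPLP0 are higher at 6 h, and the ranges of APOB overlap (30040 to 32552 at 0 h, 27027 to 30809 at 6 h).

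Transcription factors of the liver fell nearly as fast. Of 22 tested hepatocyte transcription factors (23 listed), which set and hold the hepatocyte programme, 22 were lower and 17 lost more than 1 log2 unit, with a median of -2.47. CEBPA, a factor of the mature hepatocyte (chromosome 19, 33299934 to 33302534, minus strand), went from 134, 141 and 154 at 0 h to 2.48, 3.42 and 3.73 at 6 h, 2.33% ± 0.395 left (SD over siRNAs, log2 -5.43, SE 0.062). FOXA1, a pioneer factor that opens liver enhancers, changed by -5.22 and CEBPD by -2.67. PPARA, the nuclear receptor for fatty acids, was the exception among those named, with -0.60 and ranges of 50.1 to 54.1 and 30.4 to 39.8 (0.04 under TMM).

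MYC, the growth regulator (chromosome 8, 127735434 to 127742951, plus strand), was at 152, 166 and 173 at 0 h and at 2.60, 2.85 and 3.66 at 6 h, with no overlap (log2 -5.79, SE 0.063, half-lifetime 1.04 h). Its network as a whole was slower, with a median of -1.12 and 10 of 11 tested members lower (13 listed), 1 higher and 6 past 1 log2 unit. MGA changed by -2.46 and MLX by -1.12, and MLXIPL, the carbohydrate-sensing factor of the liver, rose by 0.30 (SE 0.044, edgeR adjusted p 1.42e-11) with overlapping ranges of 120 to 143 and 139 to 174.

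Genes of other signalling pathways followed. Circadian clock genes had a median of -1.80, with 17 of 17 tested lower (19 listed) and 11 past 1 log2 unit: BHLHE40, a clock repressor, changed by -5.11, NFIL3 by -4.75, RORA by -1.80 and NPAS2, an activator, by -0.54 with overlapping ranges (0.11 under TMM). For p53 target genes the median was -1.85, with 24 of 26 tested lower (27 listed) and 15 past 1 log2 unit. BBC3, a pro-apoptotic protein, changed by -4.99 and PLK2 by -4.63. MDM2, the ubiquitin ligase that keeps p53 low (chromosome 12, 68808177 to 68845544, plus strand), went from 361, 390 and 413 to 95.1, 103 and 107, a log2 change of -1.93 (SE 0.045). Its ranges were well apart, while those of FDXR overlapped (49.5 to 58.8 and 45.9 to 56.9, log2 -0.05, edgeR adjusted p 0.31).

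NF-kB feedback and chemokine genes had a median of -1.37, with 12 of 13 tested lower (18 listed) and 8 past 1 log2 unit. The inhibitors of NF-kB led them, NFKBIA at -6.22 (1.36% left) and NFKBIE at -3.84. Wnt feedback genes had a median of -1.33, with 11 of 12 tested lower (13 listed), 1 higher and 7 past 1 log2 unit, and ranged from SP5 at -4.79 and ZNRF3, a ligase that removes Wnt receptors, at -3.49 to NOTUM, a secreted inhibitor, at 0.09 (edgeR adjusted p 0.0403, overlapping ranges, a call lost without any of several single libraries). Stress response genes were split. In the integrated stress and unfolded protein response, 16 of 19 tested genes were lower (21 listed), 3 were higher and 9 passed 1 log2 unit, with a median of -0.95. DDIT4 changed by -6.26 and DDIT3 (CHOP) by -4.99, whereas the endoplasmic reticulum proteins CALR and PDIA4 rose by 0.16 and 0.19 (edgeR adjusted p at most 9.38e-05, with overlapping ranges for PDIA4).

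Heat shock proteins were split in a like way: 13 of 18 tested were lower (21 listed), none was higher and 5 passed 1 log2 unit, with a median of -0.50 (0.14 under TMM). The cochaperones DNAJB1 at -5.02 and BAG3 at -2.36 stood against HSP90AA1 at 0.07 (edgeR adjusted p 0.109). In the BCL2 family the median was -0.77, with 13 of 14 tested lower (18 listed) and 6 past 1 log2 unit. MCL1, an anti-apoptotic member known for its short-lived protein, changed by -3.39 (168 to 198 at 0 h, 16.5 to 18.7 at 6 h). Interferon response genes had a median of -0.72, with 22 of 29 tested lower (38 listed), 1 higher and 10 past 1 log2 unit, with IFIT5 at -4.33, IRF1 at -2.82 and ISG15 at 0.01 (edgeR adjusted p 0.907). The interferon class was near all genes tested: 75.9% were lower and 34.5% past 1 log2 unit, against 79.1% and 33.1%. Heat shock proteins were near them too, with 72.2% lower and 27.8% past 1 log2 unit.

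The C2H2 zinc finger genes named ZNF were the largest class and the sixth in the ranking. They encode DNA-binding proteins, many of them repressors with a KRAB domain. Of 386 tested (508 listed), 382 were lower and 330 passed 1 log2 unit (85.5%), with a median of -2.28. The 184 on chromosome 19, where clusters of these genes lie, had a median of -2.59 with 167 past 1 log2 unit, and the 202 on other chromosomes a median of -2.03 with 163. Position on chromosome 19 was not shared by its other genes: 623 other protein-coding genes there had a median of -0.46, with 164 past 1 log2 unit. ZNF503 (chromosome 10, 75397830 to 75401764, minus strand) went from 18.1, 20.8 and 24.2 at 0 h to 0.135, 0.432 and 0.679 at 6 h, a log2 change of -5.69 (SE 0.112) without overlap. ZNF296 changed by -5.65, ZNF687, near the class median, by -2.28, ZNF664, which shares bases with RFLNA, by -0.17 with overlapping ranges (0.47 under TMM) and ZNF358 by 0.10 (edgeR adjusted p 0.23).

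Enzymes that write and erase histone methylation had a median of -1.40, with 47 of 49 tested lower (51 listed) and 32 past 1 log2 unit, among them RIOX1 at -4.32 and KDM5B, an H3K4 demethylase, at -3.48. Mediator and Integrator subunits, which act with RNA polymerase II, had a median of -0.88, with 43 of 47 tested lower (47 listed), 1 higher and 20 past 1 log2 unit. Subunits of these complexes did not move as a block: MED18 changed by -5.21 and INTS5 by -4.47, while INTS1, the scaffold of Integrator, was at 0.06 (edgeR adjusted p 0.235).

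Genes that handle and destroy RNA are of interest because the depleted proteins act on mRNA. Of the 24 listed and tested writers, readers and erasers of m6A and m7G, 22 were lower and 14 passed 1 log2 unit, with a median of -1.34. YTHDF2, the m6A reader that recruits deadenylases (chromosome 1, 28736621 to 28769775, plus strand), went from 121, 126 and 134 to 8.78, 10.4 and 11.7, 8.16% ± 0.547 left (SD over siRNAs, log2 -3.61, SE 0.055). Its ranges were far apart. CBLL1, a subunit of the m6A writer complex, changed by -3.16 and the nuclear reader YTHDC1 by -1.41, while HNRNPC and HNRNPA2B1 were at -0.06 and 0.03 (edgeR adjusted p 0.164 and 0.46). The siRNA targets themselves were among the slower members, with IGF2BP1 at -0.55, IGF2BP2 at -0.37 and IGF2BP3 at -0.35 (SE at most 0.047), all 3 of which were positive under TMM (0.11, 0.28 and 0.32).

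In the RNA decay machinery, 52 of 61 tested genes were lower (61 listed), 3 were higher and 23 passed 1 log2 unit, with a median of -0.75. The shares lower and past 1 log2 unit were 85.2% and 37.7%, against 79.1% and 33.1% of all genes tested. SMG8, a regulator of nonsense-mediated decay, changed by -4.74 and BTG1, which binds the deadenylase complex, by -4.62, while the deadenylase CNOT6 was at the class median with -0.75 and LSM4, of the decapping ring, rose by 0.20 (edgeR adjusted p 1.63e-05, slightly overlapping ranges of 75.3 to 85.1 and 84.2 to 101). AU-rich element binding proteins had a median of -0.79, with 16 of 17 tested lower (21 listed), 1 higher and 8 past 1 log2 unit. The destabilising members ZFP36L2 (110 to 120 at 0 h, 3.41 to 5.49 at 6 h, log2 -4.74) and ZFP36 (log2 -4.63) stood against YBX1, a general mRNA-binding protein, which rose by 0.25 (SE 0.041, edgeR adjusted p 2.27e-09) without overlap. Proteins of the Argonaute and microRNA pathway had a median of -0.56 (0.08 under TMM), with 14 of 14 tested lower (15 listed) and 4 past 1 log2 unit. The latter share was 28.6%, against 33.1% of all genes tested. SR and hnRNP splicing factors had the same median of -0.56 (0.08 under TMM), with 32 of 37 lower, 1 higher and 6 past 1 log2 unit, from HNRNPF at -1.82 and SRSF5 at -1.46 to HNRNPA1, which rose by 0.14 (edgeR adjusted p 0.00103, overlapping ranges).

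The 13 messages encoded in mitochondrial DNA were all lower, 10 of them by more than 1 log2 unit, with a median of -1.66. MT-ND2, a subunit of complex I (position 4470 to 5511 of the mitochondrial genome, plus strand), went from 3265, 3644 and 3884 at 0 h to 244, 265 and 281 at 6 h, 7.26% ± 0.544 left (SD over siRNAs, log2 -3.78, SE 0.046), and MT-CYB of complex III also changed by -3.78. MT-CO1, the core of complex IV, kept far more, at 12880 to 14134 and 6946 to 7947 (54.6% ± 1.38 left, log2 -0.87). The loss was therefore uneven along a genome that is copied as long joint transcripts. MT-ATP6 changed by -1.66 and MT-ND4 by -0.98, but both share annotated bases with a neighbour (MT-ATP8 and MT-CO3, and MT-ND4L), so their counts are uncertain. The class median is the value of MT-ATP6 and carries that uncertainty.

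Translation genes were spread over the middle and the slow end of the ranking. Cytosolic ribosomal proteins were the most stable class: 70 of 81 tested were higher (85 listed), 5 were lower and 1 passed a loss of 1 log2 unit, with a median of 0.19 and a median between 0.17 and 0.19 in each siRNA. RPLP0, a stalk protein of the large subunit (chromosome 12, 120196699 to 120201235, minus strand), went from 1944, 2151 and 2290 to 2392, 2565 and 2994, a rise of 0.29 (SE 0.041, edgeR adjusted p 9.82e-13). Its ranges did not overlap, and RPL28 also rose by 0.29 and RPL7 by 0.19 (overlapping ranges). RPL36A fell by 3.64 on the log2 scale, but its exons are shared with the annotated readthrough gene RPL36A-HNRNPH2 and its 4.44 to 5.76 CPM at 0 h are uncertain.

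Other translation classes lost more. Mitochondrial ribosomal proteins had a median of -0.51 (0.13 under TMM), with 65 of 78 tested lower (79 listed), 2 higher and 12 past 1 log2 unit, from MRPS30 at -2.62 to MRPL23, which rose by 0.22. Initiation and elongation factors had a median of -0.34 (0.30 under TMM), with 48 of 71 tested lower (75 listed), 9 higher and 9 past 1 log2 unit. EIF2AK3 (PERK), a kinase that shuts down initiation under stress and that shares the name stem of the class, changed by -2.93. EIF4A1 changed by -4.43 and EIF3CL rose by 0.82, and both are uncertain, since EIF4A1 shares exons with the readthrough gene SENP3-EIF4A1 and EIF3CL has a near-identical copy. Aminoacyl-tRNA synthetases had a median of -0.33 (0.31 under TMM), with 30 of 39 lower, 1 higher and 7 past 1 log2 unit. The 2 fastest, PARS2 at -5.52 (0 to 20 reads a library at 6 h) and MARS2 at -4.10, are mitochondrial enzymes. Ribosome biogenesis factors had a median of -0.80, with 85 of 89 tested lower (91 listed), 2 higher and 33 past 1 log2 unit. The last share was 37.1%, against 33.1% of all genes tested. These factors ranged from RRS1 at -3.56 and BRIX1 at -3.41 to NHP2 at 0.12 (edgeR adjusted p 0.0141, overlapping ranges), whose call was lost without siIGF2BP2 replicate 2 or siIGF2BP3 replicate 1 at 6 h (0.09 in both).

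Messages for the metabolism and secreted proteins of the liver were mostly kept. Coagulation, complement and serpin plasma proteins had a median of 0.04, with 14 of 49 tested lower (54 listed), 16 higher and 1 past a loss of 1 log2 unit. SERPINA1, the main elastase inhibitor of plasma, rose from 5894, 6294 and 6645 to 6897, 7243 and 8176 (log2 0.24, SE 0.040, edgeR adjusted p 1.76e-09) without overlap, and FGA of fibrinogen was at 0.04 (edgeR adjusted p 0.314). C4A rose by 0.32 but has a near-identical copy. Of 15 tested apolipoproteins (17 listed), 7 were higher, 5 lower and 2 past a loss of 1 log2 unit, with a median of -0.06 (0.58 under TMM). APOA1 of high-density lipoprotein rose by 0.28 (SE 0.041, edgeR adjusted p 1.15e-11) with slightly overlapping ranges of 2253 to 2575 and 2552 to 3283. APOB, the core protein of very-low-density lipoprotein (chromosome 2, 21001429 to 21044073, minus strand), was at 30040, 31184 and 32552 at 0 h and at 27027, 30533 and 30809 at 6 h, ranges that overlapped (log2 -0.06, SE 0.039, edgeR adjusted p 0.111). The 2 members that lost much, APOL2 at -2.0 and APOL6 at -1.64, belong to the APOL group, whose proteins act inside cells.

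Further metabolic classes lost little at the median, with single members far below it. Iron homeostasis genes had a median of -0.27 (0.37 under TMM), with 14 of 23 tested lower (25 listed), 4 higher and 5 past 1 log2 unit. HAMP, which encodes the iron hormone hepcidin, went from 14.3, 17.9 and 19.6 to 0.558, 0.845 and 1.01 (log2 -4.46, SE 0.104) and FBXL5, an iron sensor, changed by -1.82, while the ferritin genes FTH1 and FTL rose by 0.23 and 0.21 without overlap. NRF2 antioxidant response genes, which share FTH1 and FTL with the iron list, had a median of -0.38 (0.27 under TMM), with 12 of 20 tested lower (21 listed), 5 higher and 6 past 1 log2 unit. The transcription factor itself, NFE2L2, led the losses with -3.30 (212 to 244 at 0 h, 19.2 to 27 at 6 h). Cholesterol and fatty acid synthesis genes had a median of -0.26 (0.39 under TMM), with 25 of 36 tested lower (38 listed), 1 higher and 5 past 1 log2 unit. SCD, a desaturase, was at 0.09 (edgeR adjusted p 0.0305, overlapping ranges, a call lost without any of several single libraries).

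Solute carriers had a median of -0.51 (0.13 under TMM), with 164 of 203 tested lower (356 listed), 8 higher and 32 past 1 log2 unit. That is 80.8% lower and 15.8% past 1 log2 unit, against 79.1% and 33.1% of all genes tested. SLC30A1, the zinc exporter, changed by -3.82, and SLC25A6, which rose by 0.65 with overlapping ranges, lies in a region shared by both sex chromosomes and has close copies, so its count is uncertain. Drug-metabolizing enzymes had a median of -0.10 (0.55 under TMM), with 20 of 47 tested lower (101 listed), 6 higher and 2 past 1 log2 unit. Selenoproteins had a median of -0.04 (0.60 under TMM), with 9 of 21 tested lower (24 listed), 4 higher and 1 past 1 log2 unit. GPX4 and GPX3, glutathione peroxidases, rose by 0.28 and 0.22, while SEPHS2, which makes the selenium donor for all selenoproteins, changed by -1.42. Of the 5 metallothioneins tested (9 listed), 2 were lower and none was higher, with a median of -0.08 (0.57 under TMM).

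Nuclear-encoded classes of energy metabolism were stable at the median. Nuclear-encoded subunits of the respiratory chain had a median of 0.09, with 37 of 77 tested higher (86 listed), 12 lower and none past a loss of 1 log2 unit, in contrast to the mitochondrially encoded partners of the same complexes described above. COX6C of complex IV rose from 161, 167 and 184 to 202, 216 and 231 (log2 0.35, SE 0.044, edgeR adjusted p 4.13e-15) without overlap, COX6A1 rose by 0.33 and the complex I subunit NDUFV3 fell by 0.81. Glycolytic enzymes had a median of 0.15, with 9 of 16 tested higher (21 listed), 2 lower and 1 past a loss of 1 log2 unit. GAPDH, TPI1 and ENO1 rose by 0.21, 0.21 and 0.16 (SE at most 0.042, edgeR adjusted p at most 8.38e-05, overlapping ranges for ENO1 only), and HK2, the hexokinase of growing and tumour cells, was the 1 member past 1 log2 unit (106, 134 and 168 to 42.3, 53.3 and 70.4, log2 -1.31). LDHA changed by -0.33 (0.31 under TMM). Citric acid cycle enzymes had a median of 0.00, with 7 of 21 lower, 5 higher and none past 1 log2 unit. MDH2 rose by 0.23 and SDHA was at 0.00 (edgeR adjusted p 0.993).

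Proteasome subunits had a median of -0.26 (0.38 under TMM), with 28 of 37 tested lower (39 listed), 2 higher and 2 past 1 log2 unit, the regulatory particle genes PSMD5 at -1.69 and PSMD12 at -1.15. Of these subunits, 75.7% were lower and 5.41% past 1 log2 unit, against 79.1% and 33.1% of all genes tested. Tubulins had a median of -0.41 (0.23 under TMM), with 13 of 15 tested lower (23 listed), none higher and 1 past 1 log2 unit, and TUBA1B was at -0.01 (edgeR adjusted p 0.837). Cell cycle and DNA replication genes lay near the middle of the ranking with a median of -0.93, 71 of 77 lower, 1 higher and 35 past 1 log2 unit. Within them FBXO5 (EMI1), an inhibitor of the anaphase-promoting complex, changed by -4.44, the mitotic kinase AURKA by -3.15 (183 to 214 at 0 h, 20.3 to 23.9 at 6 h) and E2F1 by -0.93, while TYMS, an enzyme of nucleotide synthesis, was at 0.10 (edgeR adjusted p 0.0185, overlapping ranges), a call lost without replicate 2 of siIGF2BP2 at 0 h (0.09) or 6 h (0.08) or replicate 1 of siIGF2BP3 at 0 h (0.08).

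Long noncoding transcripts were lost faster than coding ones at the median. Of 731 genes annotated as lncRNA, 620 were lower, 8 higher and 315 past 1 log2 unit, with a median of -1.06, against -0.65 for 11036 protein-coding genes. Hosts of small nucleolar RNAs had a median of -1.11, with 19 of 24 tested lower (33 listed), none higher and 12 past 1 log2 unit, from SNHG12 at -3.85 and SNHG3 at -3.20 to DANCR, whose ranges overlapped (edgeR adjusted p 0.929). Of these hosts, 79.2% were lower and 50% past 1 log2 unit, against 79.1% and 33.1% of all genes tested. SNHG3 shares exons with RCC1. The named long noncoding RNAs had a median of -1.03, with 12 of 14 tested lower (25 listed), 2 higher and 7 past 1 log2 unit. NORAD, which binds Pumilio proteins (chromosome 20, 36045618 to 36051018, minus strand), went from 299, 353 and 371 to 39.1, 44.2 and 53.7 (log2 -2.91, SE 0.047, 13.3% ± 1.42 left) and TUG1 changed by -1.08. NEAT1, the scaffold of nuclear paraspeckles (chromosome 11, 65422774 to 65445540, plus strand), moved the other way, from 118, 136 and 149 at 0 h to 461, 546 and 581 at 3 h and 318, 412 and 439 at 6 h. Every library at 6 h was above every library at 0 h (log2 1.53, SE 0.044, edgeR adjusted p 1.67e-258). Its neighbour MALAT1, also nuclear, rose by 0.16 (SE 0.042, edgeR adjusted p 0.000117) with overlapping ranges, a call lost without siIGF2BP1 (0.12).

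By size of change among protein-coding genes, the falls were ranked for genes with a mean of at least 5 CPM at 0 h and the rises for genes with that mean at 6 h, so each gene passed in the group where it is high. The largest falls beyond those already given were in CITED2 (log2 -6.59), a coactivator-binding protein, TRIB1 (-6.37), a pseudokinase known for its effect on blood lipids, HPS6 (-6.16), of lysosome-related organelles, and SGK1 (-6.16), a kinase induced by serum and glucocorticoid, and SGK1 had 2 to 11 reads a library at 6 h. The largest rises among protein-coding genes were smaller and less certain. GLUD2 rose by 1.00, HNRNPA1L3 by 0.57 and MAGED4B by 0.56, all of which have near-identical copies, and CD99, at 0.57, lies in the region shared by the sex chromosomes. TPM2, a tropomyosin, rose by 0.93 (1.68 to 3.2 at 0 h, 4.21 to 6.29 at 6 h) and ANO9 by 0.58.

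Loss was steeper at first. The median change of all genes was -0.39 from 0 h to 3 h and -0.25 from 3 h to 6 h. In the fastest classes the contrast was stronger, with -2.58 and -1.02 for TGF-beta and BMP response genes, -2.52 and -0.54 for AP-1 and EGR genes and -2.60 and -0.76 for MAPK feedback genes. MYC changed by -4.96 and then by -0.84, and IER3 by -5.48 and then by 0.29, from 8 to 18 reads a library at 6 h. Over the first 3 h alone the half-lifetime was 0.605 h for MYC and 0.547 h for IER3, against 1.04 h and 1.15 h over 6 h. Other fast transcripts kept their pace: ID2 changed by -3.71 and -2.38, CEBPA by -2.80 and -2.63, and MPHOSPH10, a factor of small subunit processing, by -1.65 and -1.62. The mitochondrially encoded class lost as much in the second interval as in the first (-0.79 and -0.81). NEAT1 rose by 1.96 and then changed by -0.43, so the values at 6 h alone describe it incompletely. Since the 3 h libraries enter both intervals, the intervals are not independent of each other.

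Sequence features of the messages varied with the loss, as a description across genes, which are not independent replicates. Longer 3′UTRs went with larger losses (Spearman's rho -0.252, n = 11013), as did longer coding sequences (-0.195, n = 11022), while more exons went with smaller losses (0.157, n = 11036), and a higher level at 0 h likewise (0.212, n = 11036). The classes did not follow this order throughout. The median 3′UTR was 158 bases in ribosomal proteins, 192.5 in respiratory chain subunits, 315 in coagulation and complement proteins, 658.5 in glycolytic and 715 in citric acid cycle enzymes, against 1334 in all protein-coding genes tested. Among the fastest classes it was 1201 in TGF-beta and BMP response genes and 1222 in AP-1 and EGR genes, both below that of all genes, and 1957.5 in MAPK feedback, 2329 in KLF and 1742 in ZNF genes. ZNF genes also differ in base content, with a median of 42.8% G or C at the last position of codons against 57.9% in all protein-coding genes tested. The faster classes were above all genes: 76.9% in TGF-beta and BMP response, 82.2% in AP-1 and EGR and 72.6% in MAPK feedback genes. The median was 68.3% in KLF genes and 79.6% in hepatocyte transcription factors. Across genes, a higher share went with slightly smaller losses (Spearman's rho 0.143, n = 11022).

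Words in the first 500 bases of the 3′UTR were counted in 8381 tested genes whose 3′UTR is at least that long. With 0, 1, 2 and 3 or more copies of TATTTAT the median change was -0.73, -0.90, -1.13 and -1.68, in 7265, 960, 128 and 28 genes, and the share past 1 log2 unit was 36.2%, 41.8%, 48.4% and 64.3%. TGTANATA, the word bound by Pumilio proteins (N is any base), went with medians of -0.72, -1.06 and -1.33 at 0, 1 and 2 copies, in 7525, 752 and 90 genes. Both words went with larger losses in each of 4 bins of GC content, although the difference for TATTTAT was small in the most GC-rich bin (-0.71 with and -0.66 without). The shorter ATTTA, which TATTTAT contains, showed no such order (-0.71, -0.79, -0.82 and -0.76). In this window the longer word was held by 2 of 11 TGF-beta and BMP genes, 3 of 15 AP-1 and EGR genes, 3 of 12 MAPK feedback genes and 1 of 9 KLF genes, against 13.3% of tested genes and 12.4% of 13459 annotated protein-coding genes with a 3′UTR of that length. Among the slowest classes, 4 of 12 citric acid cycle, 4 of 20 coagulation and complement and 3 of 11 glycolytic genes held it. Fewer did among respiratory chain subunits (2 of 27) and ribosomal proteins (2 of 28). The share of genes with the word therefore did not follow the class ranking.

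**Figure D4:**
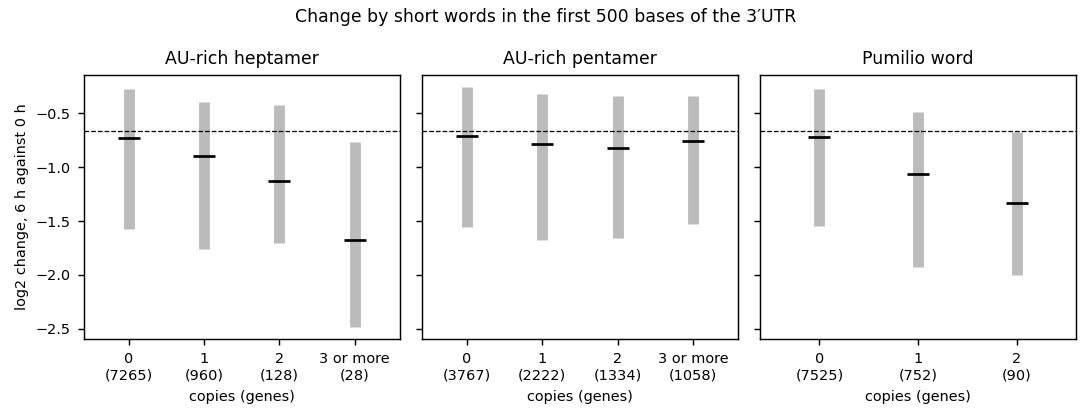
Log2 change from 0 h to 6 h (y axis) by copies of 3 short words in the first 500 bases of the 3′UTR (x axis, number of genes in parentheses), with black ticks at medians, grey bars for the interquartile range and a dashed line at the median of all genes tested. Medians fall from -0.73 to -1.68 with copies of the AU-rich heptamer TATTTAT and from -0.72 to -1.33 with copies of the Pumilio word TGTANATA, and stay between -0.71 and -0.82 for the AU-rich pentamer ATTTA; 3 or more Pumilio words are left out because fewer than 20 genes hold them.

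How far the 3 depletions differed from each other was tested with the interaction of siRNA and time. Of 12358 genes, 24 passed (0.194%, edgeR adjusted p under 0.05), 18 of them protein-coding, and 578 had an unadjusted p under 0.05. That count depended on single libraries. It was 9 and 8 without replicate 1 and replicate 2 of siIGF2BP1 at 0 h and 14 and 7 without those at 6 h. It was 10 and 11 without replicate 1 and replicate 2 of siIGF2BP2 at 0 h and 90 and 186 without those at 6 h, and it was 14 without siIGF2BP3 replicate 2 at 0 h. MT-ATP8, SMN1, CENPB and C2orf69 were the 4 called in all 12 fits that left out a library. Genes of this set that no earlier rule named are named here because they were called. CENPB, which binds centromeric DNA (chromosome 20, 3783851 to 3786740, minus strand), fell by 3.03 in siIGF2BP1, from 54.4 and 51.9 to 7.01 and 6.04, by 2.16 in siIGF2BP2, from 86.6 and 87.1 to 18.9 and 20.1, and by 2.05 in siIGF2BP3, from 89.7 and 88.6 to 22.4 and 20.5 (adjusted p of the difference 1.26e-09). Both siIGF2BP1 libraries were below all others at 0 h and at 6 h. C2orf69 was fastest in siIGF2BP2 (-2.79, against -1.81 in siIGF2BP1 and -2.16 in siIGF2BP3, adjusted p 0.000106), but shares exons with MAIP1. MT-ATP8 overlaps MT-ATP6 and SMN1 has a near-identical copy, and neither was called by DESeq2 on the ERCC scale (adjusted p 0.469 and 0.281).

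The change was most negative in siIGF2BP1 for 15 of the 24 genes, in siIGF2BP2 for 5 and in siIGF2BP3 for 4, and in 14 of the 24 the siRNA with the fastest loss also had the lowest level at 0 h. The 0 h libraries enter both the change and that level, and the 14 include IGF2BP1 and IGF2BP3, which their own siRNAs lower. A link between level and loss was not tested. MPHOSPH10 fell most in siIGF2BP1 (log2 -3.63), against -3.17 for siIGF2BP2 and -3.02 for siIGF2BP3 (adjusted p 0.00224). SOX9, a factor of the biliary and progenitor programme, changed by -5.75, -5.14 and -5.26 in that order of siRNAs (adjusted p 0.0204). NEAT1 rose by 1.76, 1.19 and 1.64 (adjusted p 0.00247), the least in siIGF2BP2. Of the siRNA targets, IGF2BP2 was not called, with -0.52 in siIGF2BP2, -0.31 in siIGF2BP1 and -0.28 in siIGF2BP3. For IGF2BP1 and IGF2BP3 the fall was faster in their own depletion: IGF2BP1 changed by -0.86 in siIGF2BP1 and by -0.40 in each of the others (adjusted p 0.0204), and IGF2BP3 by -0.70 in siIGF2BP3 against -0.16 in siIGF2BP1 and -0.23 in siIGF2BP2 (adjusted p 0.0153). These calls are less firm than that for CENPB, being kept in 9 (MPHOSPH10), 5 (SOX9), 8 (NEAT1), 3 (IGF2BP1) and 2 (IGF2BP3) of the 12 fits that left out a library. The call for JUNB (adjusted p 0.0331) rests on the high siIGF2BP2 library described above and was 0.973 without it.

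**Figure D5:**
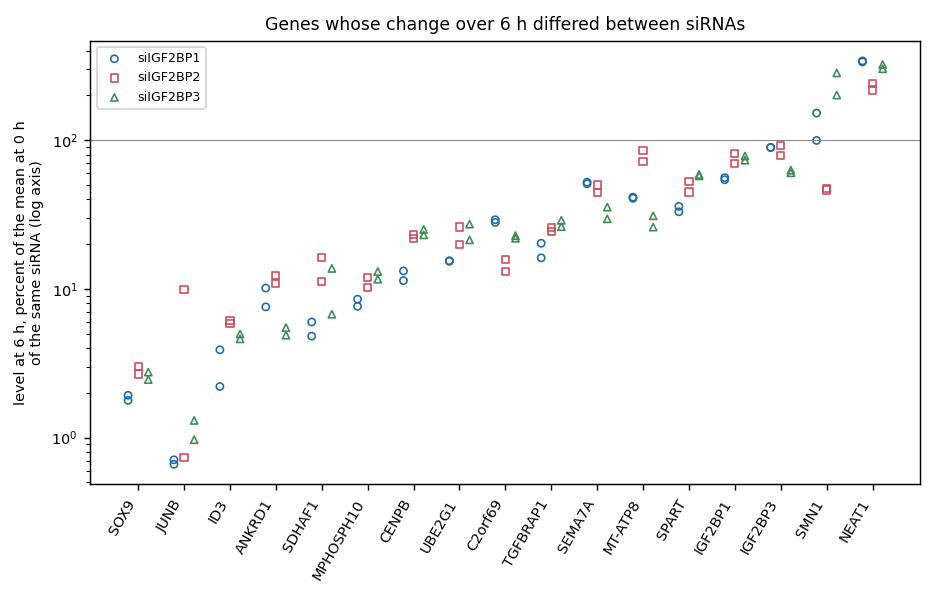
Level at 6 h as a percent of the mean at 0 h of the same siRNA (y axis, log axis, 1 symbol per library) for 17 of the 24 genes whose change differed between siRNAs by the interaction test. CENPB sits lowest in siIGF2BP1 (12.3% left, against 22.4% and 24.1%), NEAT1 lies above 200% in each siRNA, and a single siIGF2BP2 library sets JUNB apart.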

How the data were processed

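RNA-seq of polyadenylated RNA was made as stranded single-end libraries with ERCC spike-in RNAs. The authors trimmed reads with Trimmomatic 0.39, aligned them to hg38 with HISAT2 2.1.0 and counted them per gene with HTSeq on a GENCODE annotation, and the deposited values are raw read counts. The settings of HTSeq for overlapping genes and multi-mapping reads are not given in the sources used here. Gene reads per library ranged from 31843248 to 73963280 and ERCC reads from 50889 to 104051, which puts the counting error of the ERCC total at no more than 0.443%. This covers counting error only. Rows that name no gene held 13.551% to 17.064% of reads and were left out, as were 45 rows of the pseudoautosomal copies on Y.

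Counts of 12 libraries were tested with edgeR 4.0.16 (R 4.3.3; quasi-likelihood, siRNA as block, 8 residual degrees of freedom), with the ERCC total as library size in place of the fit to ERCC concentrations that the authors used. The spread was pooled over genes, so a p-value can be far smaller than 8 degrees of freedom alone would give. Genes needed 1 CPM in 6 libraries. A threshold test (glmTreat) asked for a change of more than 1 log2 unit, and adjusted p-values are Benjamini-Hochberg values over all genes tested. DESeq2 1.42.0, other scalings, other filters and left-out libraries or siRNAs were alternatives. Features and words used GENCODE canonical transcripts on GRCh38 and Python 3.11.15, numpy 2.4.6, pandas 2.3.3 and scipy 1.17.1. The fits were tested on simulated data. No replicate pair agreed within sampling noise, with a chi-square of 3.45 to 6.00 times its degrees of freedom. Members on chromosome 8 were left out of the search for AU-rich sites in the fastest classes.

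The comparison, the 45 classes and the naming rule were chosen with earlier results of these data known. The rule named the siRNA targets, the 8 largest falls and 8 largest rises among protein-coding genes with a mean of at least 5 CPM at 0 h (falls) or 6 h (rises), and in each class the 2 lowest changes, the 2 highest and the one nearest the median among members with at least 5 CPM at 0 h. CENPB, C2orf69, MPHOSPH10, SOX9, SDHAF1, SPART, UBE2G1, TGFBRAP1, SEMA7A, ID3, ANKRD1, MT-ATP8 and SMN1 fall outside it and were named after their values were seen. Some items that the rule names are not reported here.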

Additional observations from a re-analysis of the deposited data

Results flagged for a closer look

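Single libraries stood apart in 3 of 70 sets of 6 libraries examined for a value far from the rest (Dixon's test at 95%, which chance passes in about 1 of 20 sets). JUNB at 6 h was at 0.610 ERCC-scaled CPM in siIGF2BP2 replicate 1 and at 0.0359 to 0.0657 in the others. CEBPA at 6 h was at 2.48 in siIGF2BP1 replicate 2 and at 3.26 to 3.73 in the others. APOB at 6 h was at 27027 in siIGF2BP2 replicate 1 and at 29945 to 30809 in the others.

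The change from 0 h to 6 h differed between the 3 siRNAs for 17 named genes by the edgeR interaction test. The adjusted p of that difference was 2.7e-32 for MT-ATP8, 1.36e-17 for SMN1, 1.26e-09 for CENPB, 0.000106 for C2orf69, 0.00224 for MPHOSPH10, 0.00247 for SDHAF1 and NEAT1, 0.00401 for SPART and 0.00814 for UBE2G1. It was 0.0153 for IGF2BP3 and TGFBRAP1, 0.0204 for IGF2BP1 and SOX9, 0.0288 for SEMA7A, 0.0331 for JUNB and ANKRD1, and 0.0401 for ID3. SDHAF1, an assembly factor of complex II, changed most in siIGF2BP1 (-4.20), with -2.86 for siIGF2BP2 and -3.27 for siIGF2BP3, and was not called by DESeq2 on the ERCC scale (adjusted p 0.617). MT-ATP8 at 0 h was at 425 and 891 in the 2 siIGF2BP1 libraries, at 350 and 352 in siIGF2BP2 and at 962 and 1081 in siIGF2BP3, while its 6 h libraries lay between 251 and 316.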

How the results depend on the processing

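The counts depended on the scaling. Under TMM 5564 genes were lower, 5256 higher and 2361 past a loss of 1 log2 unit, and under the size factors of DESeq2 these were 5368, 5516 and 2119. Library-size scaling gave 7201 lower and 3469 higher. The median change was -0.021 under TMM, -0.29 under library size, 0.021 under the DESeq2 size factors and -0.86 with no filter (31089 genes). Gene reads per ERCC read changed by -0.377, -0.362 and -0.386 without siIGF2BP1, siIGF2BP2 or siIGF2BP3, where 2 siRNAs cannot give an exact p under 0.0556. The interaction count was 150 under TMM, 149 under library size, 177 under the DESeq2 size factors, 14 in DESeq2 on the ERCC scale, and 7 to 186 without single libraries.

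Without single libraries, 9624 to 9930 genes were lower, 690 to 1001 higher and 4008 to 4144 past a loss of 1 log2 unit. The medians of the 45 classes relative to all genes stayed within a tolerance in 1045 of 1124 values. The others came mainly from dropping the filter or asking for 5 CPM. The tolerance was the spread of the class or, where that spread was smaller, a fixed small step, so stable classes could move by more than their spread.

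Of 4010 values of 161 named genes, 34 in 13 genes turned direction. Under TMM, library size and the DESeq2 size factors the changes were 0.28, 0.012 and 0.32 for IGF2BP2, 0.32, 0.050 and 0.33 for IGF2BP3, 0.58, 0.31 and 0.62 for APOB, 0.47, 0.20 and 0.51 for ZNF664, 0.59, 0.32 and 0.63 for FDXR, 0.58, 0.31 and 0.62 for HNRNPC, 0.64, 0.37 and 0.68 for DANCR, 0.63, 0.36 and 0.68 for TUBA1B, and 0.31, 0.044 and 0.36 for LDHA. Under TMM and the DESeq2 size factors they were 0.11 and 0.13 for IGF2BP1, 0.042 and 0.084 for PPARA, and 0.11 and 0.15 for NPAS2. SMN1 changed by -0.37 without siIGF2BP3. Without single libraries the lowest value was 0.06 for NOTUM and 0.07 for SCD, both no longer called. The causes were not tested.

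The replicate numbers did not pair the libraries: deviations at 0 h and 6 h correlated at 0.031, -0.029 and 0.178. With the replicate block 9784 genes were lower, 798 higher and 4096 past a loss of 1 log2 unit. Genes with few reads at 6 h, such as BAMBI, are limited by depth.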

Other observations

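Processed pseudogenes, intronless copies of mRNAs, moved the other way from most genes. Of 215 tested, 133 were higher at 6 h and 40 lower, with a median log2 change of 0.45. Copies of ribosomal protein genes held 71 of them, with 57 higher and a median of 0.64, and the other 144 had 76 higher and a median of 0.33. Of the 8 genes that rose by more than 1 log2 unit in the threshold test, 7 were processed pseudogenes and the other was NEAT1. Reads of a processed pseudogene and of its parent gene can be hard to tell apart, and how the counts treat them is not given in the sources used here. The 170 transcribed unprocessed pseudogenes had a median of -0.68, near that of all genes.

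Reads that HTSeq assigned to no feature fell more than gene reads. There were 64.5 to 73.8 such reads per ERCC read at 0 h and 26 to 30.03 at 6 h, with no overlap, which leaves 38.7% (exact permutation test within siRNAs, two-sided, p = 0.00926, the smallest it can give), against 77.1% for gene reads. Whether reads from introns of annotated genes are among them is not given in the sources used here.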
